A study of Homo sapiens with 12 samples.

Results

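The immediate early and AP-1 genes were followed in SCC-15, an established line of oral squamous carcinoma cells. The 10 members are a list of gene names: FOS, FOSB, FOSL1, JUN, JUNB, JUND, EGR1, IER2, IER3 and MYC. They are 10 of the 61044 entries of the count table, and all 10 passed the filter on low counts. The cells carried either the study's negative-control hairpin (a short hairpin RNA, NC) or 1 of 3 hairpins aimed at FMOD, the gene of the matrix proteoglycan fibromodulin (shRNA1, shRNA2 and shRNA3). Each of these 4 groups had 3 libraries, 12 in all, from cells harvested at 48 h, and all groups share the same parent line and medium. The series asks which genes differ when FMOD is depleted. The labels do not say whether a hairpin line is a single clone or a pool, nor whether the 3 libraries came from separate cultures, so the p-values measure the spread between these libraries only, which may be technical.

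Immediate early genes are transcribed within minutes of a stimulus such as serum or a growth factor, without new protein synthesis, and most of their transcripts are short-lived. The Jun and Fos proteins are leucine zipper factors that pair to form AP-1, which binds TGANTCA elements, while EGR1 is a zinc finger factor and MYC pairs with MAX on E-boxes. In squamous epithelium AP-1 is known for its part in keratinocyte differentiation and in matrix protease genes.

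Libraries held 17286934 to 19567192 counts. The TMM factor, edgeR's correction for unequal library composition, was 0.771 and 0.795 for shRNA3 libraries 1 and 2 and 0.979 to 1.11 for the other 10, so these 2 libraries stand apart, and the members are shown with them apart from shRNA3 library 3. A fit with library 3 alone has 1 library in the shRNA3 arm. Its SE and p take the spread from the other groups, on the assumption that the lone library varies as they do, so each such call rests on 1 library. The targeted gene, FMOD, was near the limit of detection, with 2, 2 and 3 counts in NC and 0 in all 9 shRNA libraries. Squamous markers summed to 2316 to 3308 CPM (counts scaled to library size) in every library. Of the 11 markers 4, 5 and 6 were called higher and 3, 4 and 4 lower for shRNA1, shRNA2 and shRNA3. The shares of all genes called were 26.8%, 24.6% and 26.4% higher and 30.6%, 28.4% and 27.6% lower. Among the markers KRT14 was called higher for all 3 shRNAs, and TP63 was called lower for shRNA2 and shRNA3. KRT5, the basal keratin, fell from a mean of 1007 CPM in NC to 21.4, 80.1 and 74.8 CPM. In these bulk libraries fewer cells of a type and less RNA per cell cannot be told apart. Levels below are TMM-scaled CPM unless stated. A gene is called where the adjusted p of edgeR's quasi-likelihood test is under 0.05 (two-sided, Benjamini-Hochberg adjustment over 17532 genes, n = 3 libraries a group).

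Across the members, EGR1 was lower and MYC was higher with every hairpin, and each of the other 8 was called against NC for some hairpins only. A call for 1 hairpin and not for another is not a difference between them. The hairpins are compared directly further below. Against NC, 5 of the 10 were called for shRNA1 (57.4% of all genes tested), 3 for shRNA2 (53.0%), 9 for shRNA3 (53.9%). With the 3 hairpins averaged, 5 were called (60.0%), which became 3 without NC library 1 and 10 without shRNA3 library 3. No share of all genes is given beside this 3 or 10, so they say nothing particular to the members. For shRNA3 against NC that share rose from 53.9% to 73.1% without library 3. For shRNA1 these were FOSB, IER3 and MYC higher and JUND and EGR1 lower, for shRNA2 MYC higher and JUN and EGR1 lower, and for shRNA3 8 higher (26.4% of all genes were called higher) and EGR1 lower, with JUN not called. The share called was near that of all genes for shRNA1 and below it for shRNA2. The 12 libraries share 1 estimate of spread per gene, so the spread within shRNA3 enters the shRNA1 and shRNA2 tests too. With only the 6 libraries compared, 8 members were called for shRNA1 and 6 for shRNA2, without a share of all genes beside them. The same 3 NC libraries serve all of these comparisons. Both EGR1 and MYC were called for all 3 hairpins in 1 direction, 2 of 10 members beside 35.7% of all genes. The 9 shRNA libraries lay on 1 side of all 3 NC libraries for EGR1, MYC and IER3, 3 of 10 members beside 44.8% of all genes.

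**Figure D1:**
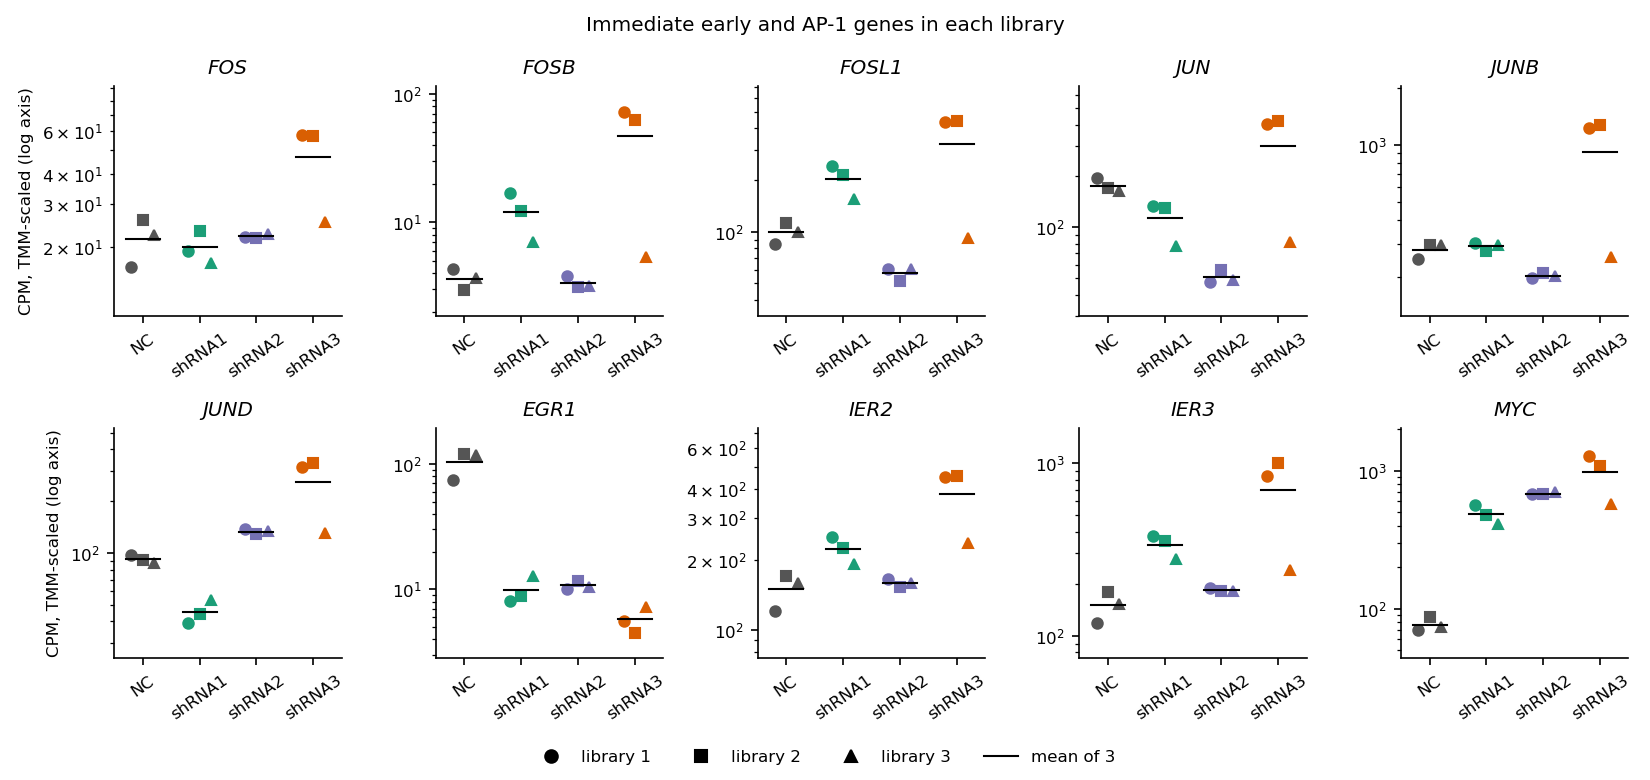
Level of each member in each of the 12 libraries (y axis: TMM-scaled CPM on a log axis that differs between panels). Circles, squares and triangles are libraries 1, 2 and 3 of a group and the line is the mean of 3. EGR1 in all 9 shRNA libraries (4.51 to 12.7 CPM) lies under NC (74.5 to 120.4 CPM), MYC lies above it, and shRNA3 libraries 1 and 2 stand above library 3 for 9 members and below it for EGR1.

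EGR1 (ENSG00000120738, chromosome 5, 138465490 to 138469315, plus strand, GRCh38) encodes the zinc finger factor that is among the earliest responders to ERK signalling, acting through serum response factor (SRF) on CArG boxes in its promoter. Its level was 74.5, 120.4 and 117 CPM in the NC libraries, against 8.10, 8.81 and 12.7 CPM for shRNA1, 10.1, 11.7 and 10.5 CPM for shRNA2, and 5.56, 4.51 and 7.29 CPM for shRNA3. Every shRNA library lay far below every NC library, and the spread within NC was small beside the gap. The fall was 10.5-fold for shRNA1 (log2 -3.40 ± 0.26 SE, adjusted p = 1.74e-06 by edgeR's quasi-likelihood test), 9.67-fold for shRNA2 (-3.27 ± 0.26, adjusted p = 2.13e-06) and 17.9-fold for shRNA3 (-4.16 ± 0.27, adjusted p = 6.21e-07). With shRNA3 library 3 alone in the group it was 14.0-fold (-3.80 ± 0.35). Among its paralogues, named after their values were seen, EGR2 had 74, 40 and 62 counts in NC and 0 to 4 counts in each shRNA library. EGR4 had 48, 27 and 40 counts in NC and 0 to 15 in the shRNA libraries, where shRNA1 was not called against NC and the shRNA3 libraries had 0, 1 and 11. EGR3 had 12, 18 and 13 counts in NC and 0 to 16 in the shRNA libraries, and was called for no hairpin (adjusted p 0.09 to 0.728, edgeR quasi-likelihood).

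The promoter of EGR1 is shown because EGR1 moved furthest below NC with every hairpin, and those of FOS and JUNB because they are immediate early genes that were not called for shRNA1 or shRNA2. JUND is shown because it was called in opposite directions for shRNA1 and shRNA3. RefSeq promoter windows, 250 bases before to 50 after the start, were searched for 7 of the 10 members. The search did not cover FOSL1, IER3 or MYC, so the motif counts below say nothing about these genes. All are 5′ to 3′ on the gene's strand in GRCh38.p14: EGR1 at chr5:138465229-138465528 (plus), FOS at chr14:75278578-75278877 (plus), JUNB at chr19:12791236-12791535 (plus) and JUND at chr19:18281573-18281872 (minus). Capitals mark the CArG boxes of EGR1 and the TGACGTCA element, a cyclic AMP response type element, of JUND.
EGR1: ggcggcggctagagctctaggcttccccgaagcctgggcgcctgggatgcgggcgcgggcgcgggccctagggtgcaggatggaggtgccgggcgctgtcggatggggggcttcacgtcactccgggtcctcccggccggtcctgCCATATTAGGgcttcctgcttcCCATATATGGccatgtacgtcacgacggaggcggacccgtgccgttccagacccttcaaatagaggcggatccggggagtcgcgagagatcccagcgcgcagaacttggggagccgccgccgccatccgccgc
FOS: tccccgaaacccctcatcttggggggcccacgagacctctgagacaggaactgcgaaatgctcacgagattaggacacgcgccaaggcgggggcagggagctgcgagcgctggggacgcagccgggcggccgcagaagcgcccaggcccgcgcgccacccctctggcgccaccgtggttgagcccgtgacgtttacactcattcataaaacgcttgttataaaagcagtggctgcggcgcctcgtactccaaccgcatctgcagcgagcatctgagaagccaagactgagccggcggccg
JUNB: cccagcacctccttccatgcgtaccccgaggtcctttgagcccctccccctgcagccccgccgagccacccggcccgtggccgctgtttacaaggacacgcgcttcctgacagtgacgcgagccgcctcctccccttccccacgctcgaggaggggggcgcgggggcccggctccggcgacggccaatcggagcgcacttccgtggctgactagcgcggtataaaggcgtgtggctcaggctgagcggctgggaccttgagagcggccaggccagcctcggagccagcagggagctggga
JUND: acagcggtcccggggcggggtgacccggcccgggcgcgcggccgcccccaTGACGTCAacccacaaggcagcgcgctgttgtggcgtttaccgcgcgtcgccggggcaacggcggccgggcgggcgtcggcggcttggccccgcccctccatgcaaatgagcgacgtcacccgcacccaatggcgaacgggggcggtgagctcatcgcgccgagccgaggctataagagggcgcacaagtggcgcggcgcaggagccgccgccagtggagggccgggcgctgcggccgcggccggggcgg
Both strands were searched. A CArG box was found in 1 of the 7 windows, EGR1, with CCATATTAGG at bases -105 to -96 and CCATATATGG at -83 to -74 from the start, and in 1.3% of 34943 promoter windows of 300 bases. TGACGTCA was found in JUND alone, at -200 to -193, and in 1.84% of windows. The AP-1 element TGANTCA was in none of the 7 (7.72% of all windows) and the E-box CACGTG in none (7.23%). GCGNGGGCG, an EGR-type motif, was in EGR1 alone at -198 to -190 (9.41% of windows). The GC box GGGCGG was in 5 of the 7 (44.9%) and TATAAA in FOS, FOSB and JUNB (11.6%). Such matches describe the letters of the window, not a bound site, and no match says only that these letters are not in it. Sites more than 250 bases before the start were outside the search, so FOS and the others may hold a CArG box there.

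MYC (ENSG00000136997, chromosome 8, 127735434 to 127741434, plus strand) encodes the helix-loop-helix factor that drives ribosome and growth genes. NC libraries held 69.8, 87.5 and 73.3 CPM. The shRNA1 libraries held 563, 477 and 412 CPM, the shRNA2 libraries 680.4, 674 and 696 CPM, and the shRNA3 libraries 1274, 1086 and 571 CPM. The lowest shRNA library was thus well above the highest NC library. MYC rose 6.29-fold for shRNA1 (log2 2.65 ± 0.26 SE, adjusted p = 9.74e-06, edgeR quasi-likelihood), 8.88-fold for shRNA2 (3.15 ± 0.27, 3.43e-06) and 12.7-fold for shRNA3 (3.67 ± 0.28, 1.56e-06). With library 3 alone for shRNA3 the rise was 7.57-fold. Per kilobase of exon, MYC moved from eighth of the 10 members in each NC library to between first and the third place in each shRNA library.

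FOS (ENSG00000170345, chromosome 14) is the founding Fos subunit of AP-1 and a classic serum response gene. It measured 16.5, 25.7 and 22.4 CPM in NC, 19.2, 23.3 and 17.2 CPM for shRNA1, 21.9, 21.8 and 22.5 CPM for shRNA2, and 57.6, 57.4 and 25.4 CPM for shRNA3. Only shRNA3 libraries 1 and 2 lay above the NC range, and all other shRNA libraries fell within it. FOS was called for shRNA3 (2.17-fold higher, log2 1.12 ± 0.29 SE, adjusted p = 0.00644, edgeR quasi-likelihood), while library 3 alone gave 1.20-fold (adjusted p = 0.322). The changes for shRNA1 (log2 -0.11 ± 0.29) and shRNA2 (0.04 ± 0.29) were within their error.

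FOSB (ENSG00000125740, chromosome 19), a Fos subunit with a strongly inducible promoter, was the lowest member per kilobase in NC, at 4.29, 2.95 and 3.65 CPM. It measured 16.9, 12.2 and 7.01 CPM for shRNA1, 3.80, 3.15 and 3.21 CPM for shRNA2, and 71.8, 62.4 and 5.31 CPM for shRNA3. All shRNA1 and shRNA3 libraries lay above NC, and those of shRNA2 overlapped it. It rose 3.31-fold for shRNA1 (log2 1.73 ± 0.69 SE, adjusted p = 0.0493) and 12.8-fold for shRNA3 (3.67 ± 0.73, adjusted p = 0.00136), both by edgeR's quasi-likelihood test. The shRNA1 call was lost without any 1 of the NC libraries or shRNA1 libraries 1 or 2 (adjusted p 0.0882 to 0.145) and with the replicate block (0.056), and shRNA3 library 3 alone gave 1.49-fold (adjusted p = 0.223). FOSB overlaps ERCC1, which had 20639 counts over all libraries, on the opposite strand. FOSB itself had 56 to 969 counts per library. The strand setting of the counting is not given in the sources used here, so reads of the pair cannot be told apart.

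FOSL1 (ENSG00000175592, chromosome 11) encodes FRA1, a Fos subunit known in invasive epithelial tumours. NC libraries held 84.5, 113 and 99.5 CPM. For shRNA1 the values were 242, 213 and 156 CPM, for shRNA2 60.8, 51.3 and 60.3 CPM, and for shRNA3 436, 442 and 91.5 CPM. All shRNA1 libraries were above NC and all shRNA2 libraries below it, while shRNA3 library 3 lay inside the NC range. Against NC only shRNA3 was called (3.26-fold higher, log2 1.71 ± 0.44 SE, adjusted p = 0.00697, edgeR quasi-likelihood), with log2 1.04 ± 0.44 for shRNA1 (adjusted p = 0.0608) and -0.79 ± 0.44 for shRNA2 (adjusted p = 0.151). The call for shRNA3 rests on libraries 1 and 2: library 3 alone gave log2 -0.09 ± 0.22. Between hairpins, FOSL1 was 3.55-fold higher with shRNA1 than with shRNA2 (adjusted p = 0.0245), 1 of 2 members called in that pair beside 12.3% of all genes, and the call was lost (adjusted p 0.0821 to 0.0977) when any 1 of 5 libraries was left out, shRNA1 library 3 being the exception.

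JUN (ENSG00000177606, chromosome 1) encodes c-Jun, the Jun subunit that JNK phosphorylates. It measured 193, 169 and 162 CPM in NC, 132, 130.0 and 77.2 CPM for shRNA1, 47.7, 56.1 and 49.0 CPM for shRNA2, and 400.3, 421 and 82.0 CPM for shRNA3. In 7 of 9 shRNA libraries JUN lay below all NC libraries, and in shRNA3 libraries 1 and 2 it lay above them. It was called for shRNA2 (3.43-fold lower, log2 -1.78 ± 0.46 SE, adjusted p = 0.0069, edgeR quasi-likelihood), and not for shRNA1 (-0.63 ± 0.45) or shRNA3 (0.78 ± 0.45). The shRNA3 value turned with the libraries used, from log2 1.23 ± 0.18 (adjusted p = 3.52e-05) without library 3 to -1.06 ± 0.25 (adjusted p = 0.0036) with library 3 alone.

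JUNB (ENSG00000171223, chromosome 19), a Jun subunit that can oppose c-Jun, was the most abundant AP-1 subunit transcript. Its level was 249, 293 and 294 CPM in NC, 303, 275 and 295 CPM for shRNA1, 197, 209 and 202 CPM for shRNA2, and 1225, 1282 and 256 CPM for shRNA3. The shRNA2 libraries lay below NC, those of shRNA1 overlapped it, and shRNA3 split. JUNB was called for shRNA3 alone (3.30-fold higher, log2 1.72 ± 0.43 SE, adjusted p = 0.00552, edgeR quasi-likelihood), which became 4.48-fold without library 3 and 1.07-fold lower (log2 -0.09 ± 0.12) with library 3 alone. HOOK2, with 4983 counts over all libraries, overlaps JUNB on the opposite strand.

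JUND (ENSG00000130522, chromosome 19, 18279760 to 18281622, minus strand) encodes the Jun subunit that is usually present in resting cells. It was 97.1, 90.9 and 87.7 CPM in NC, 38.9, 44.2 and 53.2 CPM for shRNA1, 137, 128 and 134 CPM for shRNA2, and 314, 333 and 129.8 CPM for shRNA3. The 3 shRNA1 libraries were the lowest of the 12, NC came next, and every library of shRNA2 and shRNA3 was above NC. JUND fell 2.02-fold for shRNA1 (log2 -1.02 ± 0.28 SE, adjusted p = 0.00884, edgeR quasi-likelihood) and rose 2.81-fold for shRNA3 (1.49 ± 0.28, adjusted p = 0.000958), and shRNA3 library 3 alone gave 1.44-fold (0.53 ± 0.15, adjusted p = 0.00841). For shRNA2 the value was 0.54 ± 0.28 (adjusted p = 0.125). It was the single member called in opposite directions by a pair of hairpins, 1 of 10 beside 0.502% of all genes. The difference itself was called, at log2 -1.55 ± 0.28 for shRNA1 against shRNA2 (adjusted p = 0.0075), -2.51 ± 0.29 for shRNA1 against shRNA3 (adjusted p = 0.00153), and -1.53 for the latter with libraries 1 and 2 left out (adjusted p = 0.000332).

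IER2 (ENSG00000160888, chromosome 19), a short nuclear immediate early protein, measured 120.4, 170.0 and 158 CPM in NC, 249, 223 and 190.4 CPM for shRNA1, 165, 153 and 159 CPM for shRNA2, and 453, 458 and 236 CPM for shRNA3. All shRNA1 and shRNA3 libraries were above NC, and the shRNA2 libraries were within its range. IER2 was called for shRNA3 (2.56-fold higher, log2 1.35 ± 0.24 SE, adjusted p = 0.000584, edgeR quasi-likelihood) and stayed called with library 3 alone (1.61-fold, adjusted p = 0.00446), with 1.48-fold for shRNA1 (adjusted p = 0.0589). IER3 (ENSG00000137331, chromosome 6), an immediate early gene linked to survival under stress, measured 118, 179.5 and 152 CPM in NC, 380.0, 355 and 277 CPM for shRNA1, 189, 180.3 and 180.4 CPM for shRNA2, and 844, 998 and 241 CPM for shRNA3. Every shRNA library exceeded every NC library, though those of shRNA2 by little. It rose 2.25-fold for shRNA1 (1.17 ± 0.39, adjusted p = 0.0244) and 4.62-fold for shRNA3 (2.21 ± 0.41, adjusted p = 0.000788, edgeR quasi-likelihood), and 1.63-fold with library 3 alone (adjusted p = 0.00849). The shRNA1 call of IER3 was lost without NC library 1 or 3 or shRNA1 library 1 or 2 (adjusted p 0.0566 to 0.0867). Both genes overlap a transcript on the opposite strand, AC011446.2 with 12 counts and IER3-AS1 with 35 counts over all libraries.

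The SD over libraries was largest in shRNA3 for 9 of the 10 members, with EGR1 the exception. In libraries 1 and 2, 9 of the 10 members lay above all other 10 libraries, beside 20.5% of all genes (10.9% when scaled by library total only, still 9 members), and EGR1 lay below them, beside 21.2% (31.8% by library total). The mean of libraries 1 and 2 over library 3 was 12.6 for FOSB, 5.01 for JUN, 4.90 for JUNB, 4.80 for FOSL1, 3.83 for IER3, 2.49 for JUND, 2.26 for FOS, 2.07 for MYC, 1.93 for IER2 and 0.690 for EGR1. The 4 widest ratios were those of FOSB, JUN, JUNB and FOSL1, IER3 came before JUND and FOS, and EGR1 went the other way. Without library 3, all 10 members were called against NC (73.1% of genes), and with library 3 alone, a single library, 6 were (56.9%): MYC, IER2, IER3 and JUND higher and EGR1 and JUN lower. Summed heat shock genes, which also respond to cell handling, were 5916 and 6372 CPM in shRNA3 libraries 1 and 2 and 4239.7 CPM in library 3. They were 5303 to 5910.0 CPM for shRNA1, 5215 to 5402 CPM for shRNA2 and 2129.8 to 2293 CPM in NC. In shRNA3 libraries 1 and 2, 5 of the 9 genes lay above library 3 and 4 below, beside 43.1% and 45.8% of all genes. For shRNA1, shRNA2 and shRNA3, 5, 4 and 8 of these 9 genes were called higher and 0 lower (26.8%, 24.6% and 26.4% of all genes were called higher). Summed fibroblast markers were 81.2, 86.6 and 33.1 CPM in the 3 shRNA3 libraries and 56.8 to 59.9 CPM in NC, led by COL1A1 and with COL3A1 at 3 counts or fewer in each. The sum follows COL1A1: the other 3 tested markers, COL1A2, LUM and PDGFRB, were called lower for all 3 hairpins, and none of the list was called higher. Leukocyte markers summed to 5.39 to 12.6 CPM and endothelial markers to 3.88 to 23.3 CPM over the 12 libraries, with KDR at 3 counts or fewer. These sums hold opposite moves, each called for all 3 hairpins. CSF1R was higher and CD14 and ITGAM lower, and PECAM1 was higher (mean 0.133 CPM in NC and 2.60, 4.75 and 8.73 CPM for shRNA1, shRNA2 and shRNA3) while CDH5 (17.3 CPM in NC and 1.94, 2.53 and 1.35 CPM) and VWF were lower. The part of TMM factor, heat shock genes or these markers in the split was not tested.

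**Figure D2:**
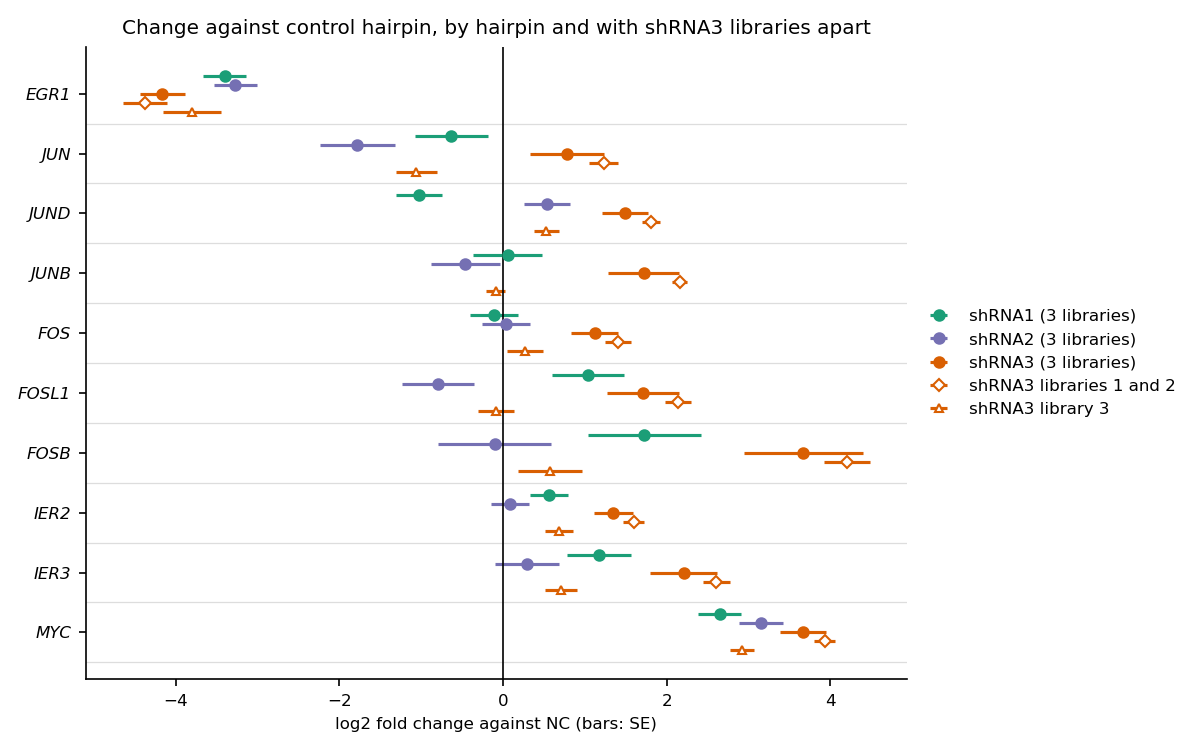
Log2 fold change of each member against NC (x axis; bars are the SE) for shRNA1, shRNA2 and shRNA3 with all 3 libraries (filled circles), for shRNA3 libraries 1 and 2 (open diamonds) and for shRNA3 library 3 (open triangles). EGR1 is left of 0 and MYC right of 0 in all 5 fits, while for JUN, JUNB and FOSL1 the open diamonds and triangles fall on opposite sides of 0.

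The pairs of hairpins differed at the members as follows. Of the 10 members, 2 were called for shRNA1 against shRNA2 (12.3% of all genes), FOSL1 and JUND. For shRNA1 against shRNA3, 8 were called (30.0%), all but FOSL1 and IER3, and for shRNA2 against shRNA3, 7 (8.34%), all but JUND, EGR1 and MYC. Both counts involving shRNA3 depended on single libraries: leaving out 1 library of either group other than shRNA3 library 3 left 2 to 4 calls for shRNA1 against shRNA3 and 0 for shRNA2 against shRNA3 (9 at an unadjusted p under 0.05 by edgeR's quasi-likelihood test in each of those 5 fits, and DESeq2 called 9 with all libraries), and without shRNA3 library 3 all 10 were called in both (63.4% and 59.2% of genes). With shRNA3 library 3 alone the counts were 2 (8.10% of genes) and 0 (1.28%), the latter with 4 at an unadjusted p under 0.05.

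AP-1 is a mixture of Jun and Fos subunits, and its transcript composition was compared per kilobase of exon (union of exons, GENCODE release 29), with FOSL2, the remaining Fos subunit, included. JUNB held the largest share in all 12 libraries, 41.9% to 54.2% of the summed level. The summed level of the 7 subunits was 316, 346 and 335 CPM per kb in NC, 394, 361 and 322 for shRNA1, 257, 258 and 259 for shRNA2, and 1256, 1300.3 and 315 for shRNA3. The shRNA2 libraries were thus the lowest, and shRNA3 library 3 lay at the level of NC. The ratio of Jun to Fos family levels was 3.36, 2.92 and 3.17 in NC and 1.33, 1.42 and 1.93 for shRNA1, the lowest of the 12, where FOSL1 held 32.6%, 31.3% and 25.7% against 14.2%, 17.3% and 15.8% in NC. For shRNA2 the ratio was 3.16, 3.38 and 3.17, near NC, but within the Jun family JUN held 5.24% to 6.13% of the total against 13.7% to 17.2% in NC and JUND 26.7% to 28.7% against 14.1% to 16.5%. In shRNA3 the ratio was 3.16, 3.36 and 2.88. The higher sum of libraries 1 and 2 thus came with a ratio inside the range of NC. Shares of single subunits nevertheless left the NC range. JUN held at most 9.15% in the shRNA3 libraries, against 13.7% to 17.2% in NC. In libraries 1 and 2 JUNB held 53.6% and 54.2% (43.3% to 48.3% in NC). FOSL2 held 3.17% and 2.70% there (5.68% to 6.93% in NC). In library 3 JUND held 22.1%, against 14.1% to 16.5% in NC.

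**Figure D3:**
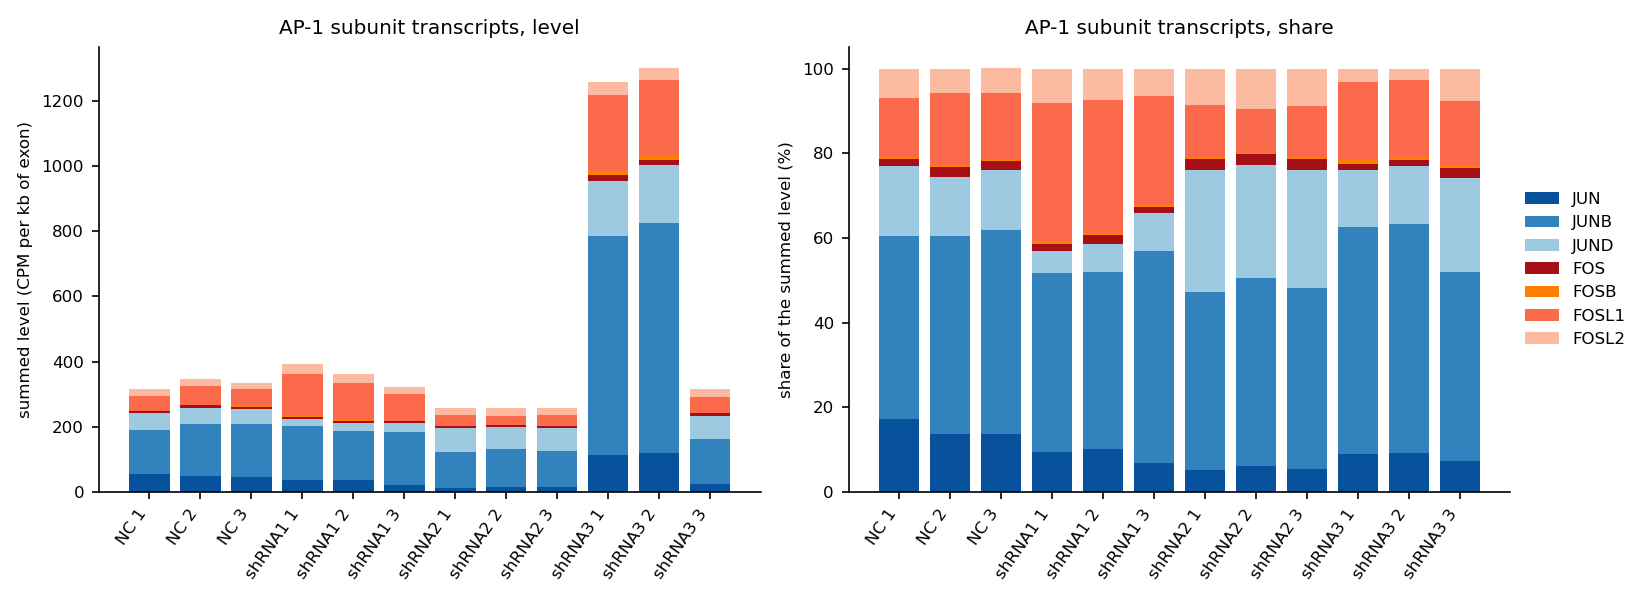
Left, stacked levels of the 7 AP-1 subunit transcripts in each library (y axis: CPM per kb of exon). Right, the share of each subunit in that sum (y axis: percent). The sum is 1256 and 1300.3 in shRNA3 libraries 1 and 2 and at most 394 elsewhere, JUNB is the largest share everywhere, and FOSL1 is widest in the 3 shRNA1 libraries.

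In levels per kilobase, JUNB and IER3 led the members in NC, and FOS and FOSB were last. The order of the 6 members in between was less fixed. JUN, JUND, FOSL1 and IER2 lay between 39.2 and 59.9 CPM per kb in the NC libraries. JUN and JUND were above FOSL1 and IER2 in NC library 1 and below them in libraries 2 and 3. FOSL1 was above IER2 in each NC library. Differences in level between members were not tested. The ranges of EGR1, at 23.8 to 38.4 CPM per kb, and MYC, at 23.3 to 29.2, overlapped, with EGR1 above MYC in each NC library. In the shRNA libraries EGR1 was at 1.44 to 4.04 CPM per kb, below FOS in every one.

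Genes of the same pathways did not move as 1 block. Of 28 other immediate early genes, 27 were tested: 9 were called higher and 4 lower for shRNA1, 4 and 9 for shRNA2, and 15 and 4 for shRNA3. Over all genes 26.8%, 24.6% and 26.4% were called higher and 30.6%, 28.4% and 27.6% lower for the 3 hairpins, so 9 of 27 is near that share and 15 of 27 above it. The list had a median log2 change of 0.19, -0.76 and 1.71 beside -0.02, -0.05 and -0.03 over all genes. DUSP1, the phosphatase that switches off MAP kinases, was 13.7, 12 and 14.4 CPM in NC, 197, 162 and 103 for shRNA1, 74.6, 75.8 and 72.7 for shRNA2, and 1889, 1909 and 79.3 for shRNA3. It was above NC in every shRNA library, and shRNA3 libraries 1 and 2 stood far above the rest. IER5L rose 9.05-, 6.72- and 17.6-fold (172, 200.4 and 108 CPM in the shRNA3 libraries) and TRIB1, a pseudokinase adaptor, 4.94-, 3.60- and 10.4-fold (134, 129.7 and 53.1 CPM) for shRNA1, shRNA2 and shRNA3. CCN2, a matricellular growth factor, fell 15-, 93.9- and 11-fold (largest adjusted p of these genes 0.0194, edgeR quasi-likelihood), with 8.67, 10.4 and 0.744 CPM in the shRNA3 libraries, so library 3 was the lowest. In shRNA3 libraries 1 and 2, 21 of the 27 lay above library 3 and 4 below, beside 43.1% and 45.8% of all genes.

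The upstream list, 18 genes of kinases, SRF and its partners and the NAB corepressors of EGR proteins, had 2 higher and 1 lower for shRNA1, 2 and 2 for shRNA2, and 4 and 5 for shRNA3, and none was called in 1 direction for all 3. For shRNA1 and shRNA2 these counts lie below the shares of all genes called (57.4% and 53.0%), and for shRNA3 they are near it (53.9%). Over all genes 35.7% were called in 1 direction for all 3. Among 11 tested of 12 other leucine zipper partners of Jun and Fos, 0 were higher and 4 lower for shRNA1, 0 and 5 for shRNA2, and 4 and 4 for shRNA3, where 4 of 11 lower is near the 30.6% of all genes called lower for shRNA1. JDP2, a repressor that binds with Jun proteins, fell from 40.8 ± 9.01 CPM (SD, n = 3) in NC to 5.71 ± 0.991, 3.09 ± 0.532 and 12.4 ± 3.12, which is 7.14-, 13.2- and 3.30-fold (largest adjusted p = 0.000187, edgeR quasi-likelihood). Its shRNA3 libraries held 14.4, 14.0 and 8.78 CPM. BATF2 fell from 5.56 CPM to 1.25, 0.398 and 0.683 CPM, the last from 0.296, 0.364 and 1.39. ATF2, a stress kinase substrate, fell from 53.1 to 28.5, 27.8 and 35.5 CPM, the last from 44.1, 34.8 and 27.5.

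AP-1 targets were called in both directions. Of 14, 12 were tested, and 4 were higher and 3 lower for shRNA1, 4 and 4 for shRNA2, and 6 and 4 for shRNA3, near the shares of all genes given above for shRNA1 and shRNA2. The protease MMP1 rose from 2.01 CPM in NC to 46.1, 35.9 and 59.7 CPM (22.9-, 17.9- and 29.6-fold), with 69.7, 74.8 and 34.6 CPM in the shRNA3 libraries, and MMP10 rose 5.47-, 4.20- and 6.60-fold. MMP3 went from 0 to 2 counts per NC library to 12.7, 5.73 and 6.98 CPM, for which no fold is given, with 6.96, 9.76 and 4.22 CPM in the shRNA3 libraries. In the same list PLAU, the urokinase gene, fell from 495 ± 26.6 CPM (SD, n = 3) to 8.85, 5.24 and 13.3 CPM (13.7, 18.6 and 7.49 in the shRNA3 libraries), the chemokine gene CXCL8 from 30.7 to 2.88, 1.34 and 1.63 CPM, and CD44 1.73-, 1.96- and 1.50-fold (935, 910.1 and 566 CPM in the shRNA3 libraries against a mean of 1203 in NC). Each of these was called for all 3 hairpins (largest adjusted p = 0.016, edgeR quasi-likelihood), which was a condition for naming it. Whether they follow the AP-1 transcripts was not tested.

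Most textbook MYC targets were called higher for shRNA1 and shRNA2, and 9 of 15 for shRNA3. Of the 15, 13 were called for shRNA1 and 12 for shRNA2, and 0 were called lower for any hairpin (26.8%, 24.6% and 26.4% of all genes were called higher), with median log2 changes of 1.63, 1.28 and 0.85. POLR1B was called for no hairpin. ODC1, which starts polyamine synthesis, was 75.7, 84.8 and 76.5 CPM in NC and 546, 550.4 and 603 for shRNA1, 411, 386 and 395 for shRNA2, and 237, 276 and 447 for shRNA3. The ribosome biogenesis gene BOP1 rose 5.05-, 3.94- and 2.66-fold, and SRM, spermidine synthase, 3.25-, 4.66- and 2.97-fold (93.4, 95.2 and 229 CPM in the shRNA3 libraries). Within the shRNA3 group MYC was higher in libraries 1 and 2 than in library 3, while 13 of the 15 targets were lower there, beside 45.8% of all genes. This sets 2 libraries, which stand apart from the rest, against 1. BOP1 was 77.9 and 80.7 CPM in libraries 1 and 2 and 279 CPM in library 3. Of the MAX network, 10 of 11 were tested, and 5, 3 and 4 were higher and 2, 2 and 0 lower for shRNA1, shRNA2 and shRNA3. Over all genes 26.8%, 24.6% and 26.4% were called higher and 30.6%, 28.4% and 27.6% lower, so 3 of 10 higher for shRNA2 is near that share. MXD1, a MAX partner that represses MYC targets, was 19.9, 18.2 and 19.6 CPM in NC, 96.0, 87.8 and 66.6 for shRNA1, 94.1, 107 and 99.6 for shRNA2, and 939, 835 and 121 for shRNA3. It too was highest in shRNA3 libraries 1 and 2, and MXD4 rose 2.39-, 1.81- and 2.26-fold. Whether the targets follow MYC or these MAX partners was not tested.

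**Figure D4:**
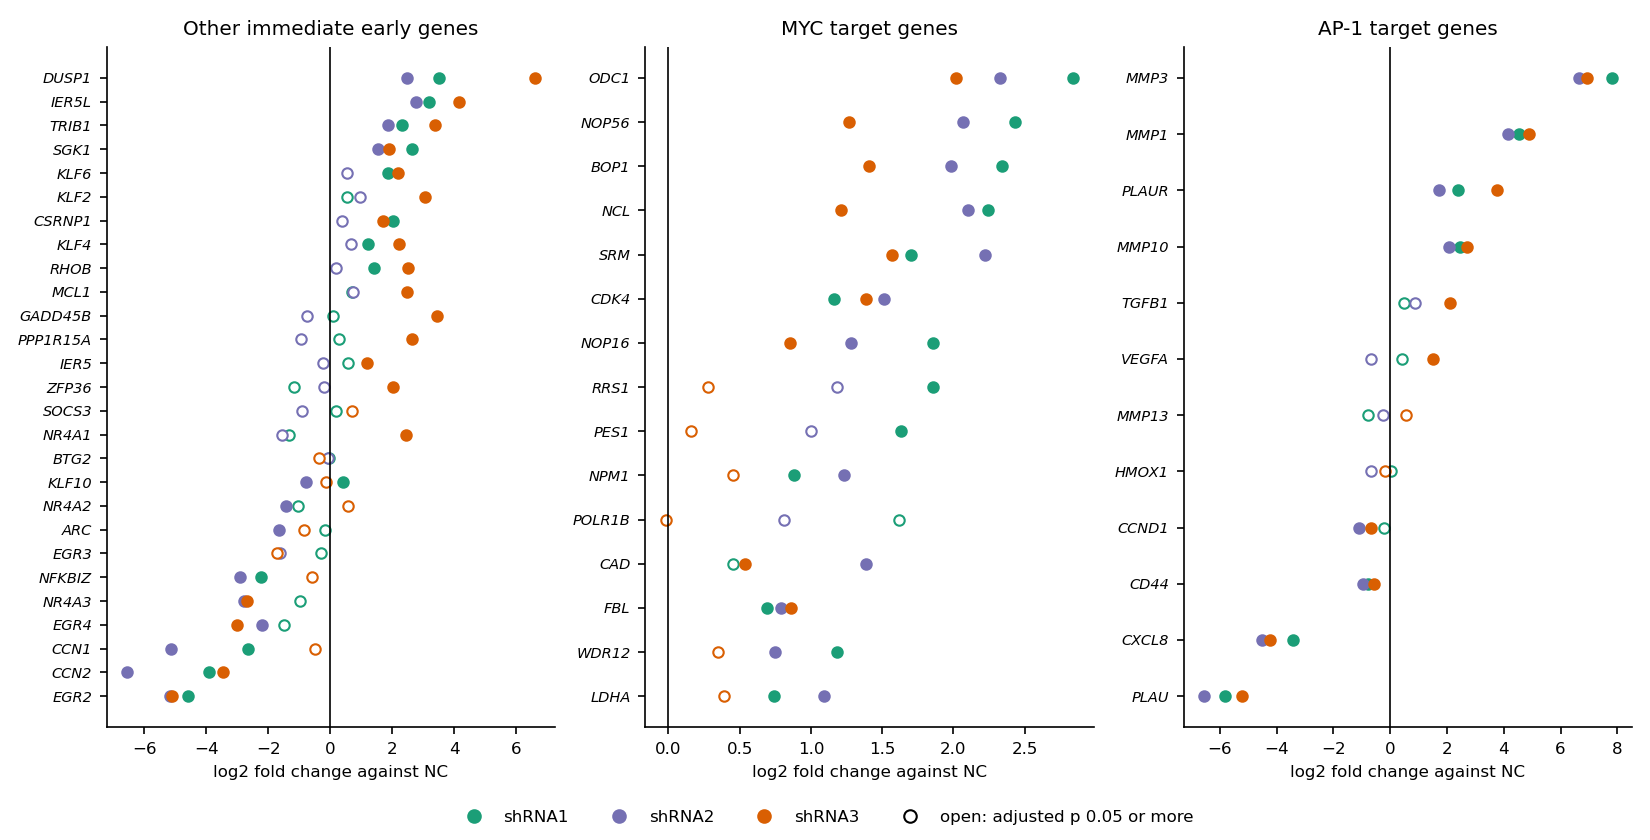
Log2 fold change against NC (x axis) of the tested other immediate early genes, textbook MYC targets and textbook AP-1 targets (y axis: genes), coloured by hairpin, with open symbols where the adjusted p was 0.05 or more. Filled MYC target symbols are all right of 0, while the immediate early and AP-1 target panels hold filled symbols on both sides.

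The genes most like each member over the 12 libraries were found as those with the smallest root mean square difference in log2(CPM + 1), each gene centred on its NC mean, among 11362 genes with a mean of at least 5 CPM. EGR1 was closest to ADGRL2 (0.26 log2 units) and GPR137B (0.32), which went from means of 23.8 and 21.9 CPM in NC to 0.741 to 2.48 and 0.291 to 2.23 CPM in the shRNA libraries. MYC was closest to ADIRF and ZNF785 (0.21 each), JUN to BCL6 (0.29) and LAMB3 (0.30), JUNB to LIF (0.18) and PRKCE (0.19), and JUND to H1-10 (0.15) and LINC01003 (0.28). The 1 CPM added before the log shrinks changes at low levels, so a near gene need not share the member's fold change. ZNF785 went from a mean of 0.399 CPM in NC to 7.37 to 23.6 CPM in the shRNA libraries. FOS was closest to PTMS (0.18) and SIGIRR (0.19), FOSB to RHOB (0.45) and ADM (0.46), and FOSL1 to EPHA2 (0.33) and SOCS1 (0.34). IER2 was closest to DAXX and LYPD5 (0.20 each) and IER3 to CITED2 and PPP1R18 (0.26 each). RHOB, an immediate early gene itself, was the only one of these 20 genes that the other lists also held.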

How the data were processed

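RNA was measured in 12 libraries of SCC-15 cells, 3 for each of 4 groups taken from the sample titles. The authors deposited 1 unscaled table with an estimated count (expected count) per gene, as the file's values show. Of these values 13.8% are not whole, and they were rounded here. The submitters' processing notes name HISAT2, HTSeq 0.11.2 and GRCh38. The annotation, the strand setting and filters are not given in the sources used here. Symbols were found for 60463 of 61044 IDs, and positions came from GENCODE release 29 on GRCh38. Of the IDs, 27430 were at 0 in all libraries.

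Counts were scaled by TMM and filtered with filterByExpr (minimum count 10, total 15), leaving 17532 genes. edgeR 4.0.16 (R 4.3.3, limma 3.58.1) fitted all 12 libraries in 1 model of 4 groups with 8 residual degrees of freedom (quasi-likelihood F test, robust, Benjamini-Hochberg, threshold 0.05). SE is the size of the change over the root of F. In simulated counts, shRNA1 against NC over 16554 genes, 29% of 2-fold and 75% of 4-fold changes were recovered, with 7 false calls. Only 100 genes were changed at each size, while 57.4% of genes were called in the data. The adjusted p depends on that share, so these rates do not give the sensitivity of the tests reported here.

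The members and lists were chosen with earlier results of these data known. Named genes are the 10 members, for each other list at most 3 per direction called for all 3 shRNAs with every shRNA library beyond every NC library and a mean of at least 1 CPM, ranked by the hairpin that changed them least, the 2 genes nearest to each member, and KRT5, KRT14, TP63 and the top gene of each marker list. Alternatives were DESeq2 size factors, DESeq2 1.42.0, no filter, a mean of at least 50 counts, a replicate block, the 6 libraries compared, each library left out, and shRNA3 libraries 1 and 2 left out. Scaling by library totals only was added after seeing the data. Replicate numbers are shared across groups. Deviations from group means correlated at -0.00434 on average over the 18 pairs that share a number and at 0.00186 over the 36 that do not, so the numbers do not pair them.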

Additional observations from a re-analysis of the deposited data

Results flagged for a closer look

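Differences between pairs of hairpins that passed edgeR's quasi-likelihood test are listed here as log2 differences. Most of those with shRNA3 were lost when 1 library other than shRNA3 library 3 was left out, and FOSL1 between shRNA1 and shRNA2 in 5 of 6 such fits. For shRNA1 minus shRNA2 they were FOSL1 at 1.83 and JUND at -1.55. For shRNA1 minus shRNA3 they were FOS at -1.23, FOSB at -1.95, JUN at -1.41, JUNB at -1.66, JUND at -2.51, EGR1 at 0.76, IER2 at -0.79 and MYC at -1.01. For shRNA2 minus shRNA3 they were FOS at -1.08, FOSB at -3.77, FOSL1 at -2.49, JUN at -2.56, JUNB at -2.18, IER2 at -1.27 and IER3 at -1.92. JUND between shRNA1 and shRNA3 gave -1.53 with shRNA3 library 3 alone, a fit in which that arm is 1 library and the other groups supply the spread. In that fit FOSL1 was at 1.14, where all 3 libraries gave -0.67.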

How the results depend on the processing

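Over 1000 pairs of a member's comparison and an alternative setting, 818 kept direction and side of the threshold, 124 lost the call, 34 gained it and 24 changed sign. EGR1 and MYC stayed called for all 3 hairpins against NC in every setting. With each library left out in turn, members called ranged from 3 to 5 for shRNA1, 3 to 3 for shRNA2, 9 to 10 for shRNA3 and 3 to 10 for the mean of shRNAs against NC, from 1 to 2 for shRNA1 against shRNA2, 2 to 10 for shRNA1 against shRNA3 and 0 to 10 for shRNA2 against shRNA3. With only the 6 libraries compared they were 8 (shRNA1) and 6 (shRNA2) against NC, and 8, 0 and 0 for the pairs in that order (6 and 9 at an unadjusted p under 0.05 for the last 2, edgeR quasi-likelihood). Without the filter they were 1 for shRNA1 against shRNA2 and 5 for shRNA1 against shRNA3, which was also 5 by library totals. With shRNA3 libraries 1 and 2 left out they were 2 and 0 for the pairs with shRNA3. In that setting the sign changed for FOSL1 (-0.09), JUN (-1.06) and JUNB (-0.09) in shRNA3 against NC, for JUNB in the mean (-0.16), for FOSB (1.16), FOSL1 (1.14), JUN (0.44), JUNB (0.17) and IER3 (0.47) in shRNA1 against shRNA3, and for JUND (0.03) and MYC (0.25) in shRNA2 against shRNA3. Only values near 0 changed sign otherwise: JUNB for shRNA1 (-0.03 by library totals, -0.03 at a mean of 50 counts, and -0.01 to 0.11 leaving out single libraries, lowest without NC library 1), FOS for shRNA1 (-0.27 to 0.03, highest without NC library 2), and for shRNA2 FOS (-0.01 with DESeq2 size factors and with its Wald test, -0.10 by library totals, -0.05 at a mean of 50 counts, -0.12 to 0.19 leaving out single libraries, lowest without NC library 1), IER2 (-0.05 by library totals, -0.04 to 0.19, lowest without NC library 1) and FOSB (-0.22 to 0.04, highest without NC library 1). EGR1 for shRNA1 against shRNA2 was 0.00 without shRNA1 library 1. The causes were not tested. With the replicate block, members called were 4, 3 and 9 against NC, 5 for the mean and 2, 7 and 5 for the pairs, and the numbers do not pair the libraries. Shares of all genes called are not set beside the member counts in this paragraph. These counts therefore show only how the calls of the members moved between settings. Scaling by library totals moved the median of all genes for shRNA3 against NC from -0.03 to -0.35 and the share of calls that were higher from 48.9% to 35.1% (shRNA1 against shRNA3, 39.6% to 49.1%).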
